A study of Mus musculus with 8 samples.

Results

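Muscle myosin light chain genes were described in SOL (soleus muscle) of MI4KO and flox mice. They comprise Myl1, Myl2, Myl3, Myl4, Myl6b and Mylpf, which encode light chains, and Mylk2 and Mylk4, which encode light chain kinases. They were chosen by gene symbol and not by a limit on their values, with earlier results of these data known. All 8 were found among the 24054 genes of the table. The series compared gene expression in muscle lacking IRF4, a transcription factor, with control muscle, by RNA-seq with 1 library per mouse. All 8 mice were C57BL/6 males, and the labels record a high-fat diet for every one of them. The age of the mice was not given in the sources used here. The 4 MI4KO mice were Irf4 flox/flox;Cre+, and the Cre recombinase was expressed from a targeted allele at the Myl1 locus (Myl1tm1(cre)Sjb), which acts in skeletal muscle fibers. The 4 flox mice carried floxed Irf4 without Cre. MI4KO mice came from a cross of an Irf4 flox/+;Cre+ parent with an Irf4 flox/+;Cre- littermate. The Cre insertion at Myl1 and the deletion of Irf4 therefore differed together between the groups, and their effects on the light chain genes cannot be told apart. Within each group, mice are numbered here from 1 to 4 in accession order.

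Each myosin heavy chain of the sarcomere carries one essential and one regulatory light chain, which wrap around and stiffen its lever arm. In adult muscle the chains come in fiber-type forms. Myl1 (essential) and Mylpf (regulatory) encode the fast-fiber pair, and Myl3 (essential) and Myl2 (regulatory) the pair shared by slow fibers and the heart ventricle. Myl4 encodes the atrial and embryonic essential chain, and Myl6b an essential chain of slow fibers. Mylk2, the skeletal muscle light chain kinase, phosphorylates the regulatory chain and thereby increases force after repeated activation, and Mylk4 encodes a related kinase. SOL is a mixed muscle rich in slow fibers.

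The stretches before the start sites of the fast pair and of the slow essential chain Myl3 are shown because the Myl1 locus also carries Cre, while Mylpf and Myl3 are the genes against which Myl1 is set below. Each stretch comes from RefSeq's start site on GRCm38.p6, reads 5′ to 3′ on the gene's own strand, and leaves out bases annotated as exon in GENCODE M21. Capitals mark E-boxes, CANNTG on either strand, the motif read by the MyoD family of muscle transcription factors.
Myl1, chr1:66945144-66945290, minus strand: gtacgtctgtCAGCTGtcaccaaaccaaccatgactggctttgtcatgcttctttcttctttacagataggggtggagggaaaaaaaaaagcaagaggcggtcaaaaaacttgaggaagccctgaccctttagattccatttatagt
Mylpf, chr7:127211358-127211607, plus strand: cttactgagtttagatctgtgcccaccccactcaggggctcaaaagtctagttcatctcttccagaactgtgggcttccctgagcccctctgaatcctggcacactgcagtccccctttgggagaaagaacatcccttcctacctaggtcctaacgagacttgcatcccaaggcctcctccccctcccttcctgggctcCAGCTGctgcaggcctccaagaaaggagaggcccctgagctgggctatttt
Myl3, chr9:110763428-110763645, plus strand: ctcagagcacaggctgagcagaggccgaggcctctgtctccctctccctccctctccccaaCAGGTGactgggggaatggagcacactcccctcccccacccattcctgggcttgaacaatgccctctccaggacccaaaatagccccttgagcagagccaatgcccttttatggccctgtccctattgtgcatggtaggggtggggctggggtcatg

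Each of these genes held 1 E-box within the 250 bases before its RefSeq start, beginning 224 bases upstream in Myl1, 51 in Mylpf and 189 in Myl3. The stretches shown for all of them lie before that start but inside the span that GENCODE gives the gene. The fast pair shared the form CAGCTG, which 13.0% of the 32851 mouse promoters of that length contained, and any E-box was found in 66.2% of them. This form was not particular to the fast pair. It also occurred in the Mylk4 entry and in the Myl2 entry 7762 bases from the nearest GENCODE start. The motif CTANNNNTAG of the MEF2 factors was found in 3.20% of all promoters and in none of the 8 entries, which cover 7 of the 8 members. Both Myl2 entries lie far from the nearest GENCODE start of Myl2, at 8227 and 7762 bases, so the sequence before that start was not examined. The Mylk4 entry lies 2248 bases from the start of the GENCODE transcript Mylk4-201. These matches are a description of the letters only.

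Deposited values were CPM scaled by the authors with the trimmed mean of M-values (TMM), and limma on log2(value + 1) was used to compare the groups. The libraries held 13417512 to 16384565 reads on genes, and each member had at least 96 reads in every mouse. All 8 members reached a value of 1 in 4 or more mice, the filter that left 11865 genes tested. Irf4, the deleted gene, was read 4 to 23 times per mouse, at 0.686 to 1.68 in flox and 0.266 to 1.03 in MI4KO SOL, with a log2 fold change of -0.45 (standard error, SE, 0.20, unadjusted p = 0.0402, adjusted p = 1.0, limma). Flox mouse 1 lay within the MI4KO range for Irf4. The log2 fold change of this low gene was -0.88 with a pseudocount of 0.1 and -0.31 (unadjusted p = 0.119, limma) without MI4KO mouse 3. Liver transcripts were carried by flox mouse 1, with a summed level of 8 liver genes of 120.1 against 1.26 to 3.05 in the other mice. MI4KO mouse 3 had the lowest correlations with the remaining libraries across genes. Values are therefore given below also without these 2 mice where that matters. In bulk muscle, fewer cells of a type and less RNA per cell cannot be told apart.

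Scaled to the length of their well-supported transcripts, the 4 adult sarcomeric light chains stood far above the other members in flox SOL. Levels in TMM-normalized CPM per kb were 6113 ± 407 for Myl3, 5991 ± 325 for Myl2, 4066 ± 279 for Myl1 and 3186 ± 311 for Mylpf (SD, n = 4). Myl3 and Myl2 did not differ beyond their spread, whereas Myl1 lay below Myl2 and above Mylpf in every flox mouse. The order below Myl3 depended on the length used. With the union of all annotated exons the flox means were 5368 for Myl3, 3191 for Myl2, 2979 for Mylpf and 2303 for Myl1, so that Myl2 fell below Myl3 and close to Mylpf, and Myl1 below both.

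Mylk2 (89.6 ± 4.57 per kb) and Myl6b (78.3 ± 20.5 per kb) came next and overlapped, followed by Mylk4 (17.8 ± 7.01 per kb) and Myl4 (12.4 ± 1.16 per kb), which overlapped as well. The 8 genes together took 1.55 to 1.599% of reads on genes in flox mice and 1.37 to 1.61% in MI4KO mice.

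**Figure D1:**
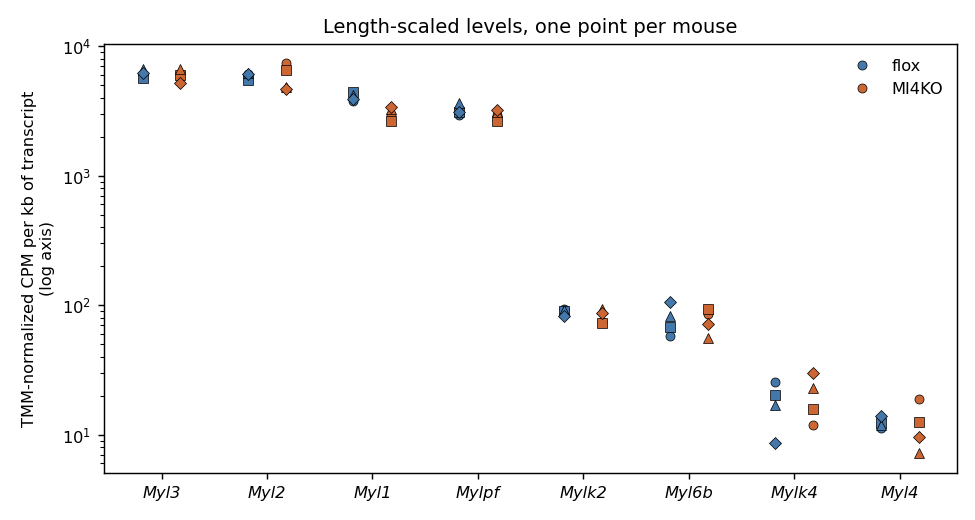
Levels of the 8 members in TMM-normalized CPM per kb of transcript, on a log axis, with 1 point per mouse in flox (blue) and MI4KO (orange) SOL. The 4 adult sarcomeric chains lie above 2616 in every mouse, and the other members lie below 105.

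Myl1 was the member that differed between the groups by its unadjusted p. Its span on GRCm38 is 66924295 to 66945404 of chromosome 1, minus strand. Its deposited values were 3151, 3664, 3510 and 3262 in flox mice 1 to 4. In MI4KO mice 1 to 4 they were 2447, 2203, 2736 and 2846. Every MI4KO mouse thus lay below every flox mouse, with group means of 3397 ± 233 and 2558 ± 290 (SD, n = 4) and 33727 to 52823 reads per mouse.

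The mean of Myl1 in MI4KO SOL was 75.3% of that in flox SOL. The log2 fold change of Myl1 was -0.41 (SE 0.10, 95% interval -0.63 to -0.20, unadjusted p = 0.00135, adjusted p = 1.0, limma), so the difference did not pass the correction over all genes. The interval did not reach -1 on the log2 scale. A two-sided exact permutation test over the mice gave p = 0.0286, the smallest that 4 mice against 4 allow. Myl1 ranked number 6 of 11865 genes by unadjusted p.

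Over 17 alternative settings the log2 fold change of Myl1 ran from -0.48 to -0.34, and its adjusted p ranged from 0.0711, with DESeq2's Wald test on the recovered reads, to 1.0. Without flox mouse 1 and MI4KO mouse 3 it was -0.48 (unadjusted p = 0.000648, adjusted p = 0.886, limma). The mouse numbers in the labels fall into a lower and a higher range. Myl1 was lower in MI4KO mice within both, by a log2 difference of -0.44 in the lower range (1 flox and 2 MI4KO mice) and -0.32 in the higher (3 flox and 2 MI4KO mice). Myl3 and Mylpf were also negative in both, with -0.00019 and -0.06 for Myl3 and -0.07 and -0.05 for Mylpf. The other 5 members had opposite signs in the lower and the higher range, with -0.88 and 0.86 for Mylk4, 0.63 and -0.40 for Myl6b, 0.41 and -0.55 for Myl4, 0.19 and -0.32 for Myl2, and -0.34 and 0.04 for Mylk2. For Mylk4, both MI4KO mice lay below the flox mouse in the lower range and above the 3 flox mice in the higher. The Myl1 gene makes 2 essential chains, MLC1f and MLC3f, from separate start sites, and the values per gene do not separate them.

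**Figure D2:**
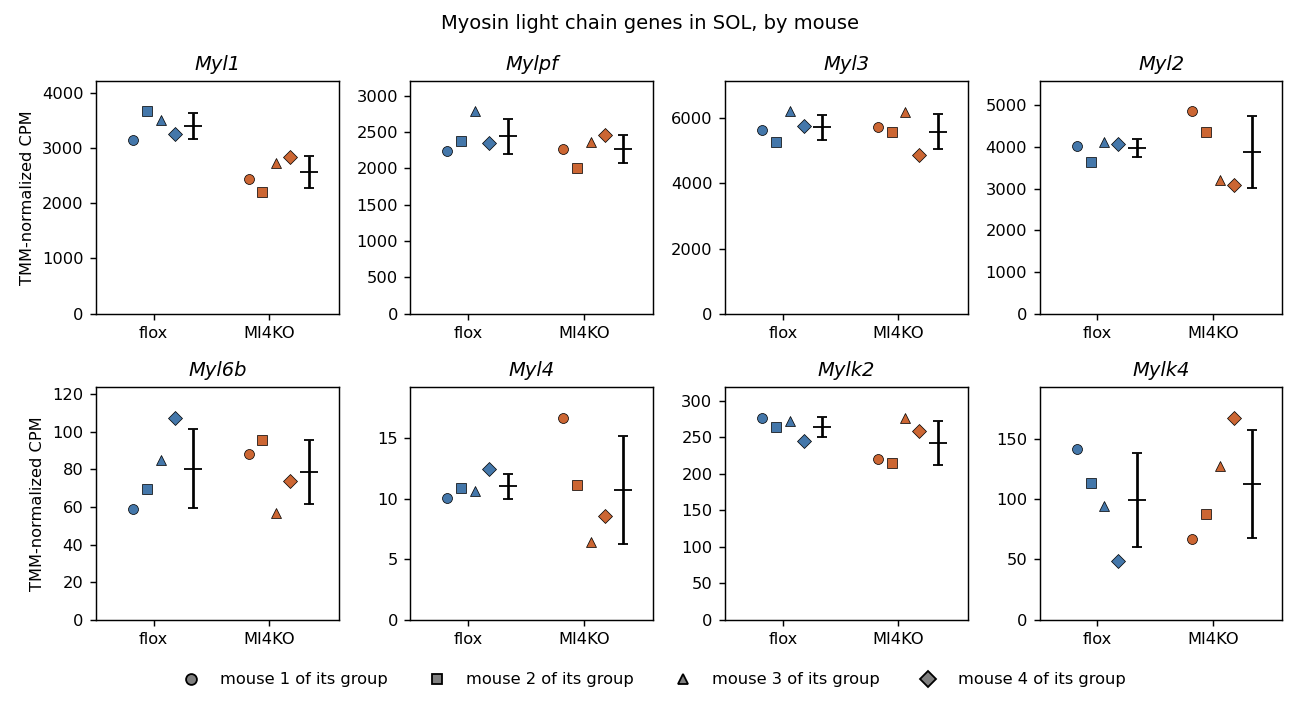
Deposited TMM-normalized CPM of each member in the 4 flox and 4 MI4KO mice, with the group mean and SD as black bars beside the points and the same marker for the same numbered mouse of a group. All 4 MI4KO mice lie below all 4 flox mice for Myl1 (2203 to 2846 against 3151 to 3664), and the groups overlap for the other 7 members.

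Mylpf, the regulatory chain of the fast pair, overlapped between the groups. Flox mice 1 to 4 were at 2241, 2380, 2786 and 2354, and MI4KO mice 1 to 4 at 2262, 2004, 2362 and 2458. The highest value belonged to flox mouse 3 and the lowest to MI4KO mouse 2, and the log2 fold change was -0.10 (SE 0.10, 95% interval -0.31 to 0.11, limma adjusted p = 1.0).

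Since a ratio of 2 genes within a library does not depend on the scaling of that library, Myl1 was also set against Mylpf in each mouse. The ratio of the deposited values of Myl1 to those of Mylpf was 1.41, 1.54, 1.26 and 1.39 in flox mice 1 to 4. It was 1.08, 1.10, 1.16 and 1.16 in MI4KO mice 1 to 4. The groups did not overlap, and on the log2 scale the mean ratio was 0.48 ± 0.12 in flox and 0.17 ± 0.05 in MI4KO mice (SD, n = 4), a difference of -0.31. With each mouse left out in turn this difference stayed between -0.36 and -0.26.

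The same comparison was made with 10 fast-fiber genes. The ratio of Myl1 had its MI4KO values all below its flox values against 5 of them, namely Tnnt3, Tnni2 and Tnnc2 (the fast troponin subunits), Atp2a1 (the fast calcium pump) and Casq1 (calsequestrin), with log2 differences of -0.46 to -0.38. Against the other 5, Myh1, Myh2, Myh4, Pvalb and Actn3, the groups overlapped. For Mylpf, the groups overlapped against all 10. Of the 5 genes against which Myl1 overlapped, Myh4, the heavy chain of the fastest fibers, ranged from 34.5 to 2496 between mice. Actn3 ranged from 23.8 to 334. Myh2, the most abundant of the 10, ranged only from 12401 to 17110, and against it the log2 difference of Myl1 was the smallest, at -0.29. All these ratios share Myl1, so they are not separate results, and the share of such ratios over all genes was not computed. Of the 10 fast-fiber genes, none had an unadjusted p under 0.05, and their median log2 fold change was 0.03, beside -0.01 over all genes tested.

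**Figure D3:**
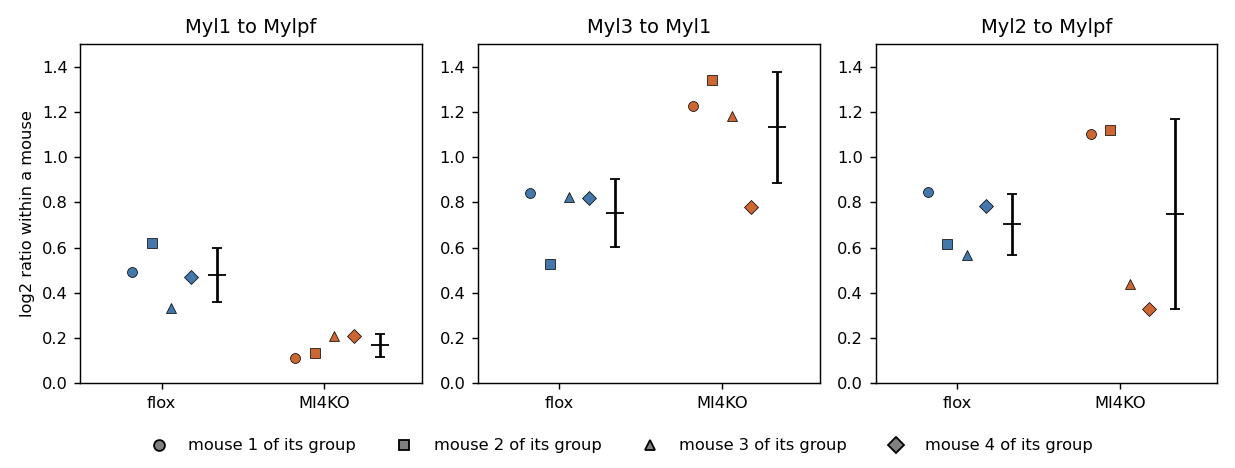
Log2 ratios of deposited values within each mouse for Myl1 to Mylpf, Myl3 to Myl1 and Myl2 to Mylpf, with 1 point per mouse and the group mean and SD as black bars. Only Myl1 to Mylpf separates the groups (0.33 to 0.62 in flox, 0.11 to 0.21 in MI4KO), while MI4KO mouse 4 lies among the flox mice for Myl3 to Myl1 and MI4KO mice 3 and 4 lie below the flox mice for Myl2 to Mylpf.

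Myl3, the slow essential chain, had overlapping groups. It was at 5651, 5289, 6215 and 5757 in flox mice 1 to 4, and at 5725, 5576, 6199 and 4883 in MI4KO mice 1 to 4. Its log2 fold change was -0.04 (SE 0.10, 95% interval -0.26 to 0.19, limma adjusted p = 1.0), and its sign changed with scaling to library size and with flox mouse 3 or MI4KO mouse 4 left out.

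The ratio of Myl3 to Myl1, the slow to the fast essential chain, was 1.79, 1.44, 1.77 and 1.77 in flox mice and 2.34, 2.53, 2.27 and 1.72 in MI4KO mice. MI4KO mice 1, 2 and 3 lay above all flox mice, and MI4KO mouse 4 lay among them. The mean log2 ratio differed by 0.38 between the groups. With the lengths of well-supported transcripts, which set the level of such shares, Myl3 supplied 55.8 to 61.1% of the essential chain transcripts in flox and 59.9 to 68.4% in MI4KO mice.

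Myl2, the slow regulatory chain, was more variable in MI4KO than in flox mice. Flox mice 1 to 4 were at 4034, 3649, 4124 and 4058. MI4KO mice 1 and 2 were above all of them, at 4853 and 4356, and MI4KO mice 3 and 4 below all of them, at 3207 and 3092. The coefficient of variation was 5.42% in flox and 22.3% in MI4KO mice, a difference that was not tested. The log2 fold change of Myl2 was -0.06 (SE 0.14, 95% interval -0.36 to 0.24, limma adjusted p = 1.0), with a sign that changed when MI4KO mouse 3 or 4 was left out. MI4KO mice 1 and 2 carry the lower mouse numbers, and mice 3 and 4 the higher.

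Myl2 supplied 63.1 to 67.6% of the regulatory chain transcripts per kb in flox mice. In MI4KO mice 1 to 4 it supplied 71.3, 71.5, 61.1 and 59.3%, so that the MI4KO mice lay on both sides of the flox range. The log2 ratio of Myl2 to Mylpf differed by 0.04 between the group means, and by -0.08 to 0.18 with each mouse left out in turn.

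The less abundant essential chains overlapped between the groups. Myl4 was at 10.04, 10.9, 10.7 and 12.5 in flox mice 1 to 4 and at 16.7, 11.1, 6.38 and 8.52 in MI4KO mice 1 to 4. As for Myl2, the MI4KO values reached above and below the flox range, with the highest in MI4KO mouse 1 and the lowest in MI4KO mouse 3. The log2 fold change of Myl4 was -0.11 (SE 0.21, 95% interval -0.56 to 0.34, limma adjusted p = 1.0), and it was 0.08 without MI4KO mouse 3. Without MI4KO mouse 1 it was -0.34 (unadjusted p = 0.0498, adjusted p = 1.0, limma).

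Myl6b was at 59.04, 69.7, 84.8 and 107.6 in flox mice 1 to 4 and at 88.4, 95.7, 57.0 and 73.7 in MI4KO mice 1 to 4. Flox mouse 4 was the highest of all and MI4KO mouse 3 the lowest. Its log2 fold change was -0.02 (SE 0.18, 95% interval -0.41 to 0.37, limma adjusted p = 1.0), with a sign that depended on the scaling.

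The kinase Mylk2 was at 275.9, 264.4, 271.6 and 245.4 in flox mice 1 to 4. It was at 220.2, 214.6, 276.9 and 258.5 in MI4KO mice 1 to 4. MI4KO mice 1 and 2 lay below all flox mice, while MI4KO mouse 3 was the highest of all 8. Its log2 fold change was -0.13 (SE 0.09, 95% interval -0.32 to 0.06, unadjusted p = 0.167, adjusted p = 1.0, limma). Without MI4KO mouse 3 it was -0.20 (unadjusted p = 0.0247, adjusted p = 0.97, limma), and without MI4KO mouse 2 it was -0.07.

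Mylk4 had the widest range of the 8 members, 3.46-fold from the lowest to the highest mouse. Flox mice 1 to 4 were at 141.3, 113.2, 94.0 and 48.4, and MI4KO mice 1 to 4 at 66.6, 87.5, 127.2 and 167.6. Each group covered most of the other's range, and the log2 fold change was 0.19 (SE 0.31, 95% interval -0.48 to 0.86, limma adjusted p = 1.0). This fold change became -0.12 without flox mouse 4 and -0.03 without MI4KO mouse 4. Without flox mouse 1 it was 0.39, and without MI4KO mouse 1 it was 0.41. Mylk4 lies on chromosome 13, 1934 kb from Irf4. The gene Pvalb, which encodes the calcium buffer parvalbumin of fast fibers, was also lowest in flox mouse 4, at 60.9 against 124.3 to 266.9 in the other mice. Fast-fiber genes did not move together in that mouse. Actn3 was lowest there too, at 23.8, whereas Myh2 was highest there, at 17110. Myh1, Myh4, Tnnt3, Tnni2, Tnnc2, Atp2a1 and Casq1 had their lowest values in other mice.

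**Figure D4:**
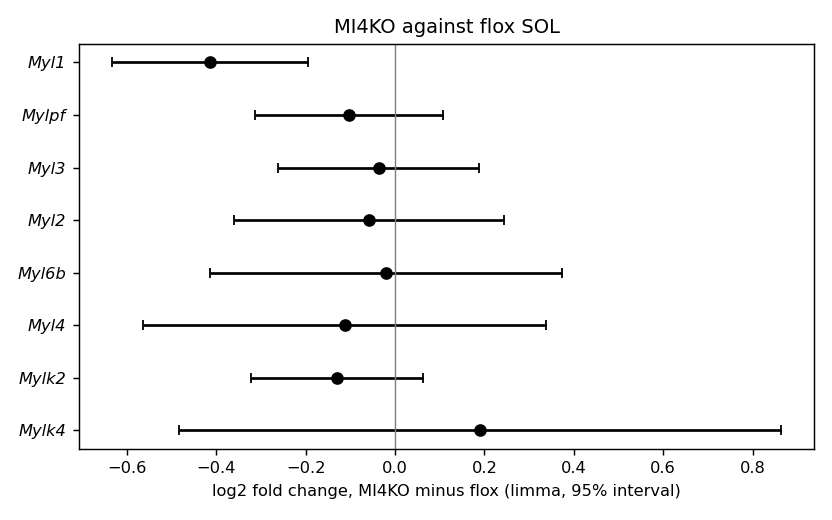
Log2 fold change of each member, MI4KO minus flox, from limma on log2(value + 1), with 95% intervals as horizontal bars. The interval of Myl1 (-0.63 to -0.20) lies below 0, and those of the other 7 members include 0.

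Among the 8 members, 1 (Myl1) was lower and 0 were higher at an unadjusted p under 0.05, against 2.95% of all genes tested lower and 0.413% higher. None passed an adjusted p under 0.05 in limma, edgeR or DESeq2, and 0% of all genes did in limma. At the study's limits, a 1.5-fold difference together with a unadjusted p under 0.05, 0 of 8 members and 0.219% of all genes passed. Every MI4KO value lay below every flox value for 1 of 8 members and for 1.7% of all genes, and above for 0 of 8 and for 0.371%. The median log2 fold change was -0.08 over the members and -0.06 without Myl1.

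The surroundings of Myl1 were examined because the Cre allele was made by targeting at this locus. Of 7 genes of the table within 500 kb of Myl1, 5 were tested. Lancl1, which encodes a glutathione-binding protein and is the nearest of them, lies 55.1 kb from Myl1 on the side of its start, on chromosome 1 from 67000517 to 67038872 on the minus strand. Lancl1 was at 32.1, 31.1, 32.4 and 30.5 in flox mice and at 25.3, 24.3, 26.0 and 20.7 in MI4KO mice 1 to 4. Every MI4KO mouse again lay below every flox mouse, with 343 to 515 reads per mouse.

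Lancl1 had a log2 fold change of -0.38 (SE 0.08, 95% interval -0.56 to -0.20, unadjusted p = 0.00069, adjusted p = 1.0, limma), with p = 0.0286, again the smallest possible, in the two-sided exact permutation test. The fold change ran from -0.42 to -0.31 over 17 alternatives. On the other side of Myl1, the groups overlapped for Acadl (a mitochondrial acyl-CoA dehydrogenase), Kansl1l, Rpe and Map2, with log2 fold changes of -0.03, -0.19, 0.17 and -0.32 (SE 0.08, 0.12, 0.15 and 0.15). Map2 had at most 27 reads per mouse. Unc80 and Cps1, with at most 5 and 15 reads per mouse, were not tested. Whether the allele at Myl1, the DNA carried with it in breeding or the loss of IRF4 bears on Lancl1 was not tested.

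**Figure D5:**
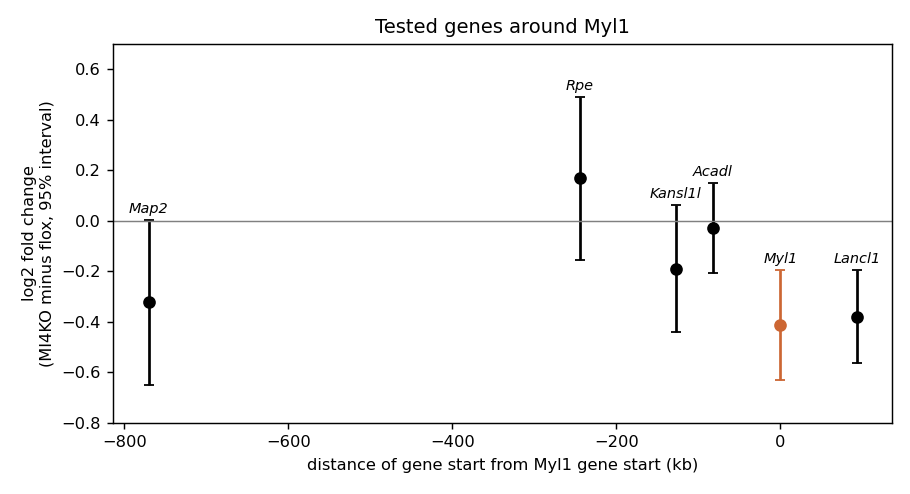
Log2 fold change (MI4KO minus flox, limma, bars for 95% intervals) of Myl1 and the 5 tested genes around it against the distance of each gene's start from the Myl1 start in kb, negative on the side of lower coordinates. Myl1 (-0.41) and Lancl1 (-0.38) have intervals below 0, and those of Map2, Rpe, Kansl1l and Acadl include 0.

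The other light chain genes of the cell had small differences. Of 7 listed (Myl5, Myl6, Myl7, Myl9, Myl10, Myl12a and Myl12b), 6 had a row and 5 were tested, of which 1 was lower at an unadjusted p under 0.05. This was Myl6, the essential chain of smooth muscle and nonmuscle myosin, at 78.9, 79.5, 84.5 and 82.1 in flox and 72.4, 76.1, 72.9 and 68.7 in MI4KO mice. The groups of Myl6 did not overlap, and MI4KO SOL had a log2 fold change of -0.16 (SE 0.07, unadjusted p = 0.0284, adjusted p = 1.0, limma). Smooth muscle markers overlapped between the groups, with summed levels of 6 genes of 248.3 to 282 in flox and 178.4 to 302.9 in MI4KO SOL, and their part in the Myl6 values was not tested.

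Myl12a, a regulatory chain of nonmuscle myosin, had the highest value of these genes, 1024 to 1282.8 in flox and 752 to 1415 in MI4KO SOL. Its copy Myl12b is so similar that the authors' counting could have divided reads among the pair, which was not tested. Myl9, the smooth muscle regulatory chain, had the largest change in this list, a log2 fold change of -0.20 (SE 0.17). Myl7, the atrial regulatory chain, had no read in any mouse, where 3 reads correspond to a value of at most 0.225.

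The other light chain kinase genes were Mylk, of smooth muscle, with a log2 fold change of -0.22 (SE 0.18), and Mylk3, of the heart, with 0.21 (SE 0.18), and neither had an unadjusted p under 0.05. None of the 4 myosin phosphatase genes, whose products remove the phosphate from the regulatory chain, had one either, with log2 fold changes from -0.09 for Ppp1r12a to 0.06 for Ppp1cb, the most abundant.

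The heavy chain list held 11 genes, sarcomeric apart from Myh14, which encodes a nonmuscle chain. Of these, 10 were tested and none had an unadjusted p under 0.05. The most abundant were Myh2, at 12401 to 17110, and the slow chain Myh7, at 11079 to 14577. Myh6, the atrial heavy chain, had the largest log2 fold change, 1.47 (SE 1.66), from an uneven pattern over mice. It was at 1451 in flox mouse 3 and at 1089 and 1045 in MI4KO mice 3 and 4, and between 13.6 and 16.7 in the other 5. Myl4, the atrial essential chain, did not stand out in those 3 mice, at 10.7, 6.38 and 8.52. The atrial markers Myl7 and Nppb had no read in any mouse, and Nppa stayed at or below 0.146. Myh6 is close in sequence to Myh7, and whether reads were split between them in the authors' counting was not tested. In flox mouse 3 and MI4KO mice 3 and 4, Myh7 was at 14577, 11079 and 11105, against 11178.5 to 13900 in the other 5.

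Marker lists of the fiber types were checked beside the light chains. The 8 slow-fiber genes, all tested, had log2 fold changes from -0.17 to -0.02 with a median of -0.08, and none had an unadjusted p under 0.05. Their summed level was 30578 to 37687 in flox and 28539 to 34385 in MI4KO SOL. The 10 fast-fiber genes summed to 50988 to 55675 in flox and 45099 to 60334 in MI4KO SOL, so markers of both fiber types were abundant in every mouse, and these sums are not scaled to gene length. The 5 genes of immature fibers had summed levels of 69.6 to 100.2 in flox and 36.1 to 104.8 in MI4KO SOL, lowest in MI4KO mouse 3, in which Myl4 was lowest too. Of these genes, Myh3, Ncam1 and Myog were lowest in that mouse, and Myh8 and Chrng were not. The 8 heart genes summed to 58.6 to 1504 in flox and 67.04 to 1130 in MI4KO SOL, a range set by Myh6.

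For each member, the genes most like it over the 8 mice were taken by Pearson's r of log2(value + 1), among 7331 genes whose mean value reached 10. Libraries and scaling are shared by all genes, and with 8 mice and this many candidates the highest r is high by selection, so the coefficients are a description. For Myl1 they were Vti1a (r = 0.928), Slc38a4 (0.919) and 2310022B05Rik (0.919). Vti1a was at 21.8 to 22.6 in flox and 19.01 to 20.5 in MI4KO SOL, without overlap. A gene chosen for its likeness to Myl1 tends to share the separation of Myl1, so this adds nothing to it. The groups overlapped for Slc38a4 (21.1 to 25.3 in flox, 17.3 to 23.4 in MI4KO SOL). They also overlapped for 2310022B05Rik (31.04 to 34.7 in flox, 27.8 to 31.4 in MI4KO SOL).

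Among the 3 closest genes for Mylpf were Rbm27 (r = 0.922) and Klhl30 (0.915). For Myl2 they were Ppfibp1 (0.974), Gsto1 (0.957) and Rnf13 (0.956), each with MI4KO mice 1 and 2 above and MI4KO mice 3 and 4 below all flox mice. For Myl3 they were Ctps (0.981), Rpl37 (0.964) and Gorasp2 (0.961).

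For Myl4 the closest genes were Ddit3, the stress-induced transcription factor CHOP (r = 0.975), Ccndbp1 (0.960) and 3632451O06Rik (0.954). Ddit3 was at 57.2 in MI4KO mouse 1 and 21.4 in MI4KO mouse 3, the same extremes as Myl4. For Myl6b they were Snapc1 (0.945), Cnpy3 (0.943) and Pold4 (0.930), and for Mylk2 Efnb1 (0.985), Tcf20 (0.956) and Slc7a2 (0.956). For Mylk4 they were Fam57b (0.970), Mybpc2, the fast-fiber myosin-binding protein C (0.944), and Kdm1b (0.910). Mybpc2 ran from 116.9 in flox mouse 4 to 369.4 in flox mouse 2.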

How the data were processed

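RNA-seq was analysed for SOL of 4 MI4KO and 4 flox mice, grouped by the labels. Per the labels and the study's methods, the authors made Kapa stranded mRNA libraries, sequenced single reads of 50 bases, and used bcl2fastq 2.17, Bowtie2 2.1.0 against UCSC transcripts (mm10 in the submitters' notes), RSEM 1.2.15 and TMM. The deposited values, 1 per gene and mouse, are a signal in CPM after TMM scaling. The authors' own fold changes, p-values and FDR, also deposited, were not used. Dividing by each mouse's step gave whole reads for 100% of non-zero values (within 0.01 read), 13417512 to 16384565 per mouse. Floors of 3 reads cover counting error only, since no molecular identifiers were used.

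Groups were compared with limma 3.58.1 (R 4.3.3), with a mean-variance trend, on log2(value + 1), for the 11865 genes that reached a value of 1 in 4 or more of 8 mice, with Benjamini-Hochberg adjustment. This scale understates fold changes of low genes. Single genes were also tested by a two-sided exact permutation test over all 70 splits of the mice, in which p cannot go below 0.0286. P-values and the 95% intervals of limma measure the spread between these mice. Alternatives were a pseudocount of 0.1, no filter, other scalings, no trend, edgeR 4.0.16 and DESeq2 1.42.0 on recovered reads, a covariate for the range of the mouse number, and each mouse left out. Leaving out flox mouse 1 and MI4KO mouse 3 together, and setting Myl1 against all fast-fiber genes, were added after seeing the data. The fits were tested on simulated data. Coordinates and lengths are from GENCODE M21 on GRCm38. The members and lists were chosen with earlier results of these data known. Named genes are the 8 members, from each list the gene of highest level, of largest change and any past a limit, the tested neighbours of Myl1 within 500 kb, and the 3 genes most like each member. Some genes that this rule would name are not reported here. Pvalb, Actn3, Myh4 and Myh2 were singled out from the fast-fiber list, and the atrial genes beside Myh6, after their values were seen.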

Additional observations from a re-analysis of the deposited data

Results flagged for a closer look

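A mouse was looked at again where its gap to the nearest mouse of its group, divided by the range of that group, passed Dixon's 95% critical value for 4 mice. Of 26 groups of 4 mice examined for the members, 3 of their ratios, Irf4 and Lancl1, 1 passed it, and about 1 in 20 would pass by chance. In flox mouse 2 the log2 ratio of Myl3 to Myl1 was 0.53, against 0.82 to 0.84 in the other flox mice, a gap of 0.927 of the range. That mouse had the lowest Myl3 value (5289) and the highest Myl1 value (3664) of the flox mice. With the mice left out in turn, the difference of this ratio between the groups was between 0.30 and 0.49.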

How the results depend on the processing

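Over 17 alternatives, the log2 fold changes of Myl1, Lancl1, Mylpf and Mylk2 kept their sign, and those of Myl1 and Lancl1 kept an unadjusted p under 0.05 in each (0.00559 at most for Myl1 and 0.00294 for Lancl1). No alternative gave Myl1 an adjusted p under 0.05. The number of genes past the study's limits, 26 in limma, was 71 with a pseudocount of 0.1, 65 with edgeR's quasi-likelihood test, 51 with DESeq2's Wald test, and 18 to 57 with mice left out in turn, the highest without MI4KO mouse 4. No gene had an adjusted p under 0.05 in limma, where 399 had an unadjusted p under 0.05. With mice left out in turn there were 0 to 1, the 1 without MI4KO mouse 2. Irf4, which could be fitted in 13 alternatives, ran from -0.88 to -0.31, with -0.86 in edgeR and -0.87 in DESeq2, and its unadjusted p ran from 0.00782 to 0.119. At an unadjusted p under 0.05, Mylk2 passed without MI4KO mouse 3 and Myl4 without MI4KO mouse 1. The ratio of Myl2 to Mylpf changed sign with mice left out and was -0.08 with the covariate. Signs of small differences changed. The log2 fold change of Myl6b was 0.000706 with DESeq2 size factors, 0.024 with library size, 0.00084 with DESeq2's Wald test and -0.15 to 0.13 with mice left out. That of Myl3 was 0.0078 with library size and -0.088 to 0.027 with mice left out, that of Myl2 -0.18 to 0.042, that of Myl4 -0.34 to 0.083 and that of Mylk4 -0.12 to 0.41. Without flox mouse 1 and MI4KO mouse 3, Myl2 was at 0.033 and Myl4 at 0.043. The difference of the log2 ratio of Myl1 to Mylpf, -0.31, became -0.53 against the mean of the 10 fast-fiber genes, a list in which Myh4 and Actn3 varied widely between mice, and there the groups overlapped (0.28 to 1.45 in flox and 0.05 to 0.66 in MI4KO SOL). The cause of these shifts was not tested. No paired analysis was possible because the labels give mouse numbers that no 2 mice share. Depth did not limit the light chains, at 96 reads or more, but did limit Irf4, at 4 to 23 reads.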
